A study of Arabidopsis thaliana with 9 samples.

Results

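The cysteine-rich receptor-like kinases (CRKs) of Arabidopsis thaliana are the subject here, as 42 loci listed by their family names out of 37361 loci in the count tables. The family was selected on the fold changes that its members had shown in these same counts, so the fold changes below are descriptions and not independent evidence of a family-wide change. Of the 42 loci, 34 had enough reads to be tested among the 22400 genes that passed the filter on low counts. Most members lie on chromosome 4, and 20 of them, from CRK5 to CRK24, stand in a tandem group at chr4:12117491-12191704 of the TAIR10.1 reference.

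CRKs are receptor-like kinases of the plasma membrane. Their extracellular part carries repeats of the DUF26 domain with a conserved cysteine pattern, a membrane span follows, and the kinase domain faces the cytoplasm. In Arabidopsis many CRK genes are known to be induced by pathogens, salicylic acid, ozone and other sources of reactive oxygen, and several CRK proteins act in pattern-triggered immunity, cell death and the response to abscisic acid.

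Polyadenylated RNA was sequenced from untreated whole seedlings aged 14 days, grown on 1/2 MS medium with 1% sucrose at 22 °C under 16 h of light and 8 h of darkness. The 3 genotypes were Col (the wild type), thp1-5 and sac3bc, each with 3 libraries. The genes THP1, SAC3B and SAC3C code for parts of TREX-2, which couples transcription with export of mRNA through nuclear pores, and by its title the series concerns the role of TREX-2 and the pore in making microRNAs. Neither the sites of the mutations nor the origin of the libraries of a genotype (separate cultures or 1) is stated in the labels. A p-value here therefore reflects only how these libraries varied.

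Libraries held 12.8 to 17.9 M counts. THP1 stood at 11.6 to 14.1 CPM (counts per 1 M of the scaled library) in Col and at 11.1 to 12.7 CPM in thp1-5, so its transcript level did not mark the thp1-5 libraries, while in sac3bc it was lower, at 5 to 6.88 CPM (log2 fold change -1.03 ± 0.12, SE). In sac3bc, SAC3B lay at 23.1 to 27.7 CPM against 46.6 to 47.2 CPM in Col, and SAC3C at 7.55 to 7.95 CPM against 14.2 to 15.8 CPM, with no overlap for either gene. SAC3B was also lower in thp1-5, at 30.8 to 36.3 CPM (-0.50 ± 0.06), and SAC3C held 12.8 to 13.7 CPM there. Among the marker genes, the 4 of leaf photosynthetic cells were all lower in both mutants, with a summed level of 46567 to 47887 CPM in Col, 28274 to 29527 CPM in thp1-5 and 24410 to 25434 CPM in sac3bc. Of the 5 root markers, 4 were higher and PYK10 was lower in both mutants. Their summed level was 3675 to 3743, 1756 to 1797 and 1760 to 1804 CPM in the same order. PYK10 made up nearly all of this sum, which therefore does not follow the other 4. The 3 guard cell markers summed to 57.4 to 62.6, 61.5 to 62.1 and 59.3 to 62.2 CPM, the 2 phloem companion markers to 258 to 273, 145 to 152 and 138 to 146 CPM, and the 3 seed storage markers to 70.1 to 72.9, 17.7 to 18.8 and 1.43 to 2.84 CPM. The 3 flower markers reached at most 1.94 CPM in sum, and of the 2 senescence markers SAG12 was at 0 in every library while NAP gave a sum of 10.7 to 12.7, 2.23 to 3.66 and 3.77 to 4.89 CPM. The part of these shifts in the CRK results was not tested, and in RNA from whole seedlings fewer cells of a type and less RNA per cell cannot be told apart.

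Before the values, 4 upstream windows are shown, each 300 bases ending at the base before the annotated start of the gene and read on the gene's strand from the RefSeq sequence of TAIR10.1. They were picked to set the member with the largest rise in thp1-5 (CRK30, chr4:6963221-6963520, plus strand) beside a neighbouring pair of which CRK6 (chr4:12121069-12121368, plus strand) was called higher in both mutants and CRK5 (chr4:12120221-12120520, minus strand) in sac3bc, and beside the most strongly lowered abundant member (CRK18, chr4:12170081-12170380, minus strand). Capitals mark TTGACC and TTGACT on either strand, the W-box forms bound by WRKY transcription factors.

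CRK30: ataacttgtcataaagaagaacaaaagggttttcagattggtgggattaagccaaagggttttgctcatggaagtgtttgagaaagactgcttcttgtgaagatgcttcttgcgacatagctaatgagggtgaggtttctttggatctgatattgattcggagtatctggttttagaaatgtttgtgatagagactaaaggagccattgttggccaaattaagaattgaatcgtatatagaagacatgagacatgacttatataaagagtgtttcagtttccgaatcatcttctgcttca
CRK6: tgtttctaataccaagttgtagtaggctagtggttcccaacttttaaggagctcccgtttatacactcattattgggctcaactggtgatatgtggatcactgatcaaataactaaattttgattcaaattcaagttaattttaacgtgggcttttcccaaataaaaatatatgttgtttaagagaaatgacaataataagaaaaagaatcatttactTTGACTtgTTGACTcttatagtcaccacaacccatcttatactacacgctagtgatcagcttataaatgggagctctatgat
CRK5: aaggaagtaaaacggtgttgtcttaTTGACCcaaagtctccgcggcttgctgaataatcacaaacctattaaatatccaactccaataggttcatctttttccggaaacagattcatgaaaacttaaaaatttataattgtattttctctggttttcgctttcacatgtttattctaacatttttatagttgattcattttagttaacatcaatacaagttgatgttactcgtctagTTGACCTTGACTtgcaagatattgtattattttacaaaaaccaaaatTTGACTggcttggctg
CRK18: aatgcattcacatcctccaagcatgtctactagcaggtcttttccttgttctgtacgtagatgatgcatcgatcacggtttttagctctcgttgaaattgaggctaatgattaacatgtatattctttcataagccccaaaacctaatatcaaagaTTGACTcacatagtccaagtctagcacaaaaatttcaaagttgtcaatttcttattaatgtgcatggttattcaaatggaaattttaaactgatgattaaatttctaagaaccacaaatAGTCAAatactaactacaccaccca

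The CRK5 window held 4 matches, which include an adjoining pair, the CRK6 and CRK18 windows held 2 each, and the CRK30 window held none. In CRK18, the capitals AGTCAA are TTGACT on the other strand. At least 1 match of TTGACC or TTGACT on either strand was found upstream of 26 of the 42 members (61.9%), compared with 32.3% of the 27443 windows of the same length in the reference. The core TTGAC, which both forms contain, was found for 73.8% of the members and 50.4% of all windows, TTGACT for 45.2% and 21.9%, and TTGACC for 21.4% and 14% respectively. Whether members with and without a match differed in direction was not tested. Of the 20 tested members with a match, 6 were called higher and 8 lower in thp1-5, and 9 higher and 5 lower in sac3bc. Of the 14 tested members without one, 6 were higher and 2 lower in thp1-5, and 9 higher and 2 lower in sac3bc. Of all tested genes, 32.0% were higher and 31.8% lower in thp1-5, and 35.0% and 33.0% in sac3bc. A match describes these letters and does not show binding. Windows of neighbouring, duplicated genes are not independent of each other.

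The members differed widely in level. Levels are compared between genes as reads per kilobase of gene length per 1 M counts (RPKM), scaled like the CPM by TMM factors, which set the bulk of genes equal between libraries. Averaged over all 9 libraries, CRK21 (AT4G23290) led with 20.1 RPKM, followed by CRK2 (AT1G70520) and CRK19 (AT4G23270) with 19.6 RPKM each, CRK3 (AT1G70530) with 18.7, CRK18 (AT4G23260) with 18.0 and CRK22 (AT4G23300) with 13.8. At the other end, RKF2 (CRK1) and CRK33 had 0 counts in all 9 libraries, which allows a level of up to 0.0215 CPM over all libraries, by counting error alone. This order mixes the genotypes, which differed for CRK21 and CRK18.

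Within this top group the genotypes diverged. CRK21 stood at 68.3, 64.4 and 62.7 CPM in the 3 Col libraries, at 39.4, 42.7 and 41.6 CPM in thp1-5 and at 35.2, 37 and 37.9 CPM in sac3bc. CRK18 stood at 57, 54.6 and 59.5 CPM in Col, at 30.8, 32.4 and 32 CPM in thp1-5 and at 29.4, 31.2 and 31.3 CPM in sac3bc. Both mutants lay wholly below Col for these genes, and the log2 fold changes were -0.65 ± 0.05 (SE) and -0.82 ± 0.05 for CRK21 and -0.84 ± 0.06 and -0.89 ± 0.05 for CRK18, in thp1-5 and sac3bc. In Col their levels were 27.4 ± 1.22 and 25.8 ± 1.09 RPKM (SD, n = 3), the highest of the family there. In both mutants CRK2, CRK3 and CRK19 stood above them.

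CRK19 was the steady member of the group. Its level was 53.9, 52.7 and 50.8 CPM in Col, 51.7, 51 and 51.7 CPM in thp1-5 and 50, 48.1 and 52.3 CPM in sac3bc, and the genotypes overlapped. The log2 fold changes of -0.03 ± 0.05 and -0.06 ± 0.05 were not called, although scaling by total counts turned them to 0.26 and 0.27, which were called. CRK2, known to associate with the NADPH oxidase RBOHD and to promote its production of reactive oxygen, held 43.6, 43.5 and 46.3 CPM in Col, 45.9, 46.3 and 48.4 CPM in thp1-5 and 47.4, 52 and 51.3 CPM in sac3bc. Its neighbour on chromosome 1, CRK3, held 50, 46.9 and 49.2 CPM, 52.2, 52.3 and 55.1 CPM, and 57, 61.6 and 58.9 CPM in the same order. The rises were small, at 0.17 ± 0.05 for CRK2 in sac3bc, and at 0.13 ± 0.05 and 0.28 ± 0.05 for CRK3 in thp1-5 and sac3bc, and the thp1-5 value of CRK2, 0.07 ± 0.05, was not called. The thp1-5 call of CRK3 was lost without Col library 2 (0.10) or thp1-5 library 3 (0.11). CRK22 stood at 40.1, 40.2 and 42.2 CPM in Col, 31, 35 and 35.2 CPM in thp1-5 and 32.7, 32.5 and 33.6 CPM in sac3bc, with log2 fold changes of -0.27 ± 0.06 and -0.31 ± 0.06 that became 0.02 in each mutant when libraries were scaled by total counts.

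**Figure D1:**
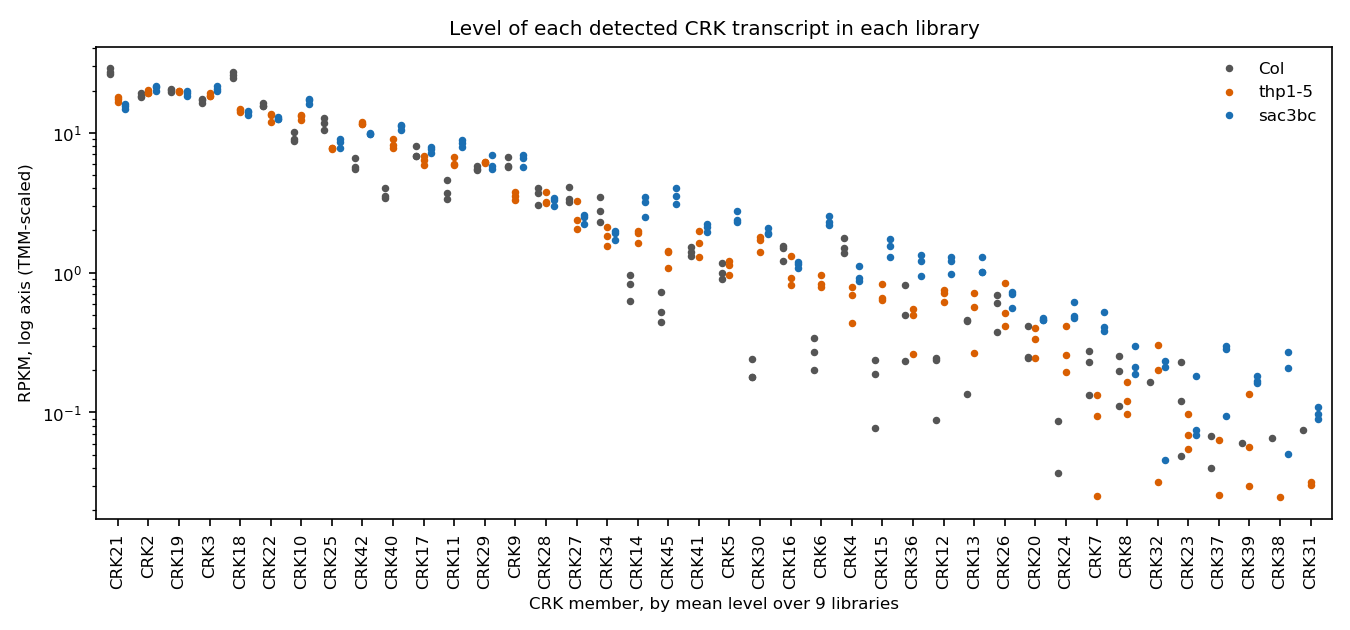
RPKM on a log axis of the 40 CRK members with at least 1 count, 1 point per library, ordered by their mean over 9 libraries; values of 0 are not drawn. The 3 genotypes lie close for CRK19, while the likewise abundant CRK21 and CRK18 stand lower in both mutants than in Col. Many members under 5 RPKM stand higher in sac3bc than in Col, as do CRK10 and CRK40 above that level.

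Summed over the family, the transcript level depended on the scaling. The 42 members together amounted to 198 ± 3.91 RPKM in Col, against 187 ± 2.66 RPKM in thp1-5 and 211 ± 2.98 RPKM in sac3bc (SD, n = 3 each), with no overlap between genotypes in the library values of 195 to 202, 184 to 189 and 207 to 213 RPKM. The 14 members with at least 5 RPKM, a limit set after the values were seen, made up most of this, at 178 ± 3.51, 165 ± 2.26 and 177 ± 2.99 RPKM. The 28 scarcer members summed to 20 ± 0.395 RPKM in Col, against 22 ± 0.544 RPKM in thp1-5 and 33.3 ± 0.923 RPKM in sac3bc. Scaled by total counts, an alternative added after the values were seen, the 42 members summed to 171 ± 2.82 RPKM in Col, 198 ± 3.93 RPKM in thp1-5 and 230 ± 3.93 RPKM in sac3bc, so that thp1-5 lay above Col. The scarcer members then summed to 17.3 ± 0.288, 23.2 ± 0.679 and 36.4 ± 1.07 RPKM. These sums follow the members that chose the family and carry no test.

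In thp1-5, 12 of the 34 tested members were called higher than in Col (35.3%) and 10 lower (29.4%), at an adjusted p under 0.05 in the edgeR quasi-likelihood test. Among all tested genes 32.0% were called higher and 31.8% lower, so the members were called in each direction about as often as genes at large. At least 2-fold higher were 8 members (23.5%, against 4.95% of all genes), and 1 was at least 2-fold lower (2.94%, against 4.53%). In sac3bc, 18 members were higher (52.9%, against 35.0% of all genes) and 7 lower (20.6%, against 33.0%), and 13 were at least 2-fold higher (38.2%, against 7.01% of all genes). The family was chosen on these contrasts, so nothing is read from the shares. The median log2 fold change of the tested members was 0.09 in thp1-5, against 0.01 over all genes, and 0.45 in sac3bc, against 0.03.

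The split depends on the scaling. When libraries were scaled by their total counts, the median of all genes moved by 0.29 in thp1-5 and 0.34 in sac3bc, and the members were split 17 higher to 5 lower and 23 higher to 2 lower. Changes are therefore relative to the bulk of genes. All members called at least 2-fold higher in a mutant were still called higher with total counts. That scaling moved fold changes upward, so it could not test these rises. The shares of all genes called under that scaling were not counted, so nothing is read from these splits.

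Members went the same way in both mutants or changed in 1 of them alone by the calls. Higher in both were 12, namely CRK3, CRK6, CRK10, CRK11, CRK12, CRK14, CRK15, CRK24, CRK30, CRK40, CRK42 and CRK45. Lower in both were 7, namely CRK4, CRK18, CRK21, CRK22, CRK25, CRK27 and CRK34. Called lower in thp1-5 and not in sac3bc were CRK9, CRK16 and CRK17, and called higher in sac3bc and not in thp1-5 were CRK2, CRK5, CRK7, CRK13, CRK36 and CRK41. The 6 members called in neither were CRK8, CRK19, CRK20, CRK26, CRK28 and CRK29, and 0 members were called in opposite directions. With total counts, CRK9 was called lower in thp1-5 (-0.49) and higher in sac3bc (0.42). The mutants share the Col libraries, so the directions are not independent. How many of all tested genes fall in each of these classes was not counted, so nothing is read from the agreement.

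**Figure D2:**
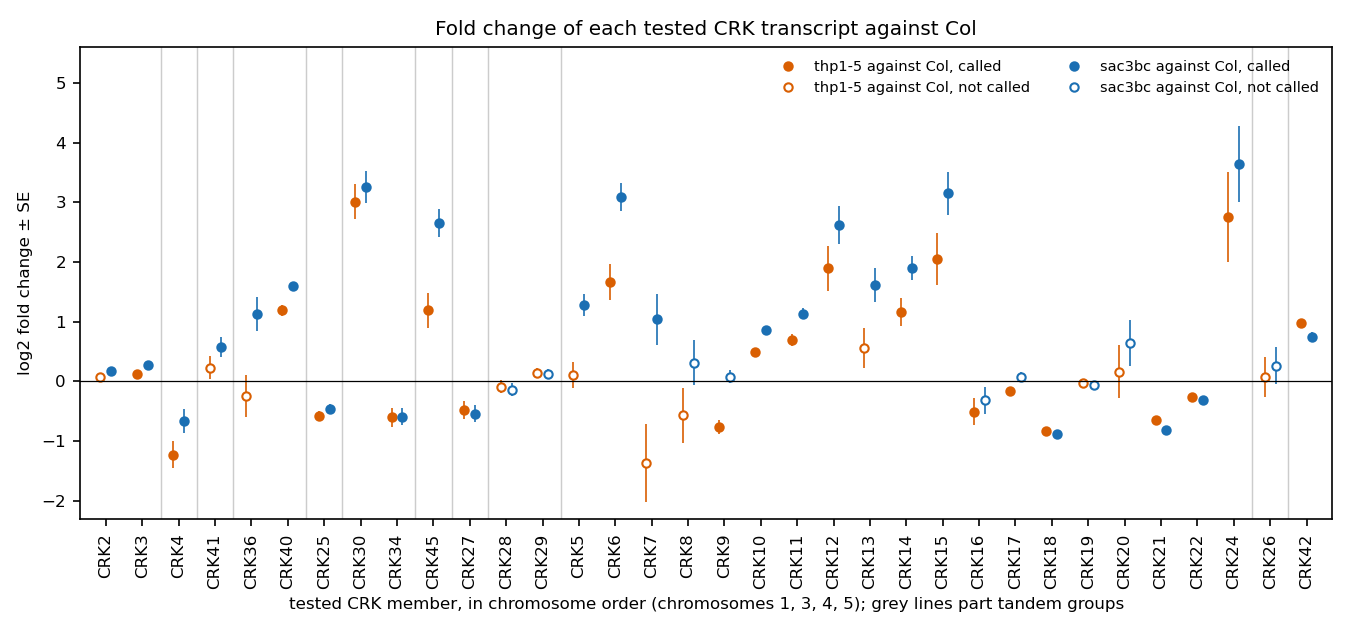
Log2 fold change against Col (y axis, bars are SE from the fit of 9 libraries) of the 34 tested members in chromosome order, thp1-5 in orange and sac3bc in blue, filled where called. CRK30, CRK24 and CRK15 reach above 2 in both mutants, while CRK18, CRK21 and CRK22 lie below 0 inside the same tandem group as CRK24.

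The largest rises were those of scarce members. CRK30 (AT4G11460) stood at 0.441, 0.441 and 0.6 CPM in Col, at 3.49, 4.4 and 4.22 CPM in thp1-5 and at 4.75, 5.1 and 4.64 CPM in sac3bc. All 6 mutant libraries lay above all Col libraries, by 3.01 ± 0.29 in thp1-5 and 3.26 ± 0.27 in sac3bc on the log2 scale, or 8.08-fold and 9.59-fold. CRK24 (AT4G23320) had 3 counts in the Col libraries together, 26 in thp1-5 and 60 in sac3bc, with 0.176, 0 and 0.075 CPM in Col, 0.52, 0.395 and 0.844 CPM in thp1-5 and 1.26, 0.999 and 0.968 CPM in sac3bc. The ratio of its summed counts was 7.31 in thp1-5 (95% exact binomial interval of 2.24 to 37.7) and 13.6 in sac3bc (4.45 to 68), by counting error alone. In CRK24, CRK7, CRK12, CRK15 and CRK30 all Col libraries lay under the filter's limit of 0.64 CPM, so these members passed it through the mutants. CRK7 passed through sac3bc alone, and in CRK24 only 1 thp1-5 library lay above the limit.

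CRK15, CRK12 and CRK6 of the tandem group followed, each with the genotypes in the order Col, thp1-5, sac3bc. CRK15 (AT4G23230) rose from 0.353, 0.147 and 0.45 CPM in Col to 1.19, 1.24 and 1.55 CPM in thp1-5 and 3.26, 2.42 and 2.91 CPM in sac3bc, by 2.05 ± 0.43 and 3.15 ± 0.36. CRK12 (AT4G23200) rose from 0.617, 0.221 and 0.6 CPM to 1.56, 1.81 and 1.9 CPM and to 2.46, 3.26 and 3.06 CPM, by 1.89 ± 0.37 and 2.62 ± 0.32. CRK6 (AT4G23140), which with CRK7 is known to act in the response to reactive oxygen in the apoplast, rose from 0.705, 0.883 and 0.525 CPM to 2.16, 2.48 and 2.04 CPM and to 6.63, 5.94 and 5.66 CPM, by 1.66 ± 0.30 and 3.09 ± 0.24. For none of these did the libraries of any pair of genotypes overlap.

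CRK40, CRK45 and CRK14 rose by smaller amounts in thp1-5. CRK40 (AT4G04570) rose from 10.6, 10.9 and 12.4 CPM in Col to 25.3, 28 and 24.2 CPM in thp1-5 and 32.4, 35.1 and 34.7 CPM in sac3bc, by 1.19 ± 0.09 and 1.59 ± 0.08. CRK45 (ARCK1, AT4G11890), a cytoplasmic member reported to act with CRK36 in abscisic acid responses, rose from 1.23, 0.883 and 0.75 CPM to 2.38, 1.81 and 2.39 CPM and to 6.75, 5.94 and 5.2 CPM, by 1.19 ± 0.29 and 2.65 ± 0.23. CRK14 (AT4G23220) rose from 1.23, 1.91 and 1.65 CPM to 3.94, 3.22 and 3.8 CPM and to 4.92, 6.89 and 6.32 CPM, by 1.16 ± 0.23 and 1.90 ± 0.20. Each of the 3 again had its sac3bc libraries above its thp1-5 libraries.

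**Figure D3:**
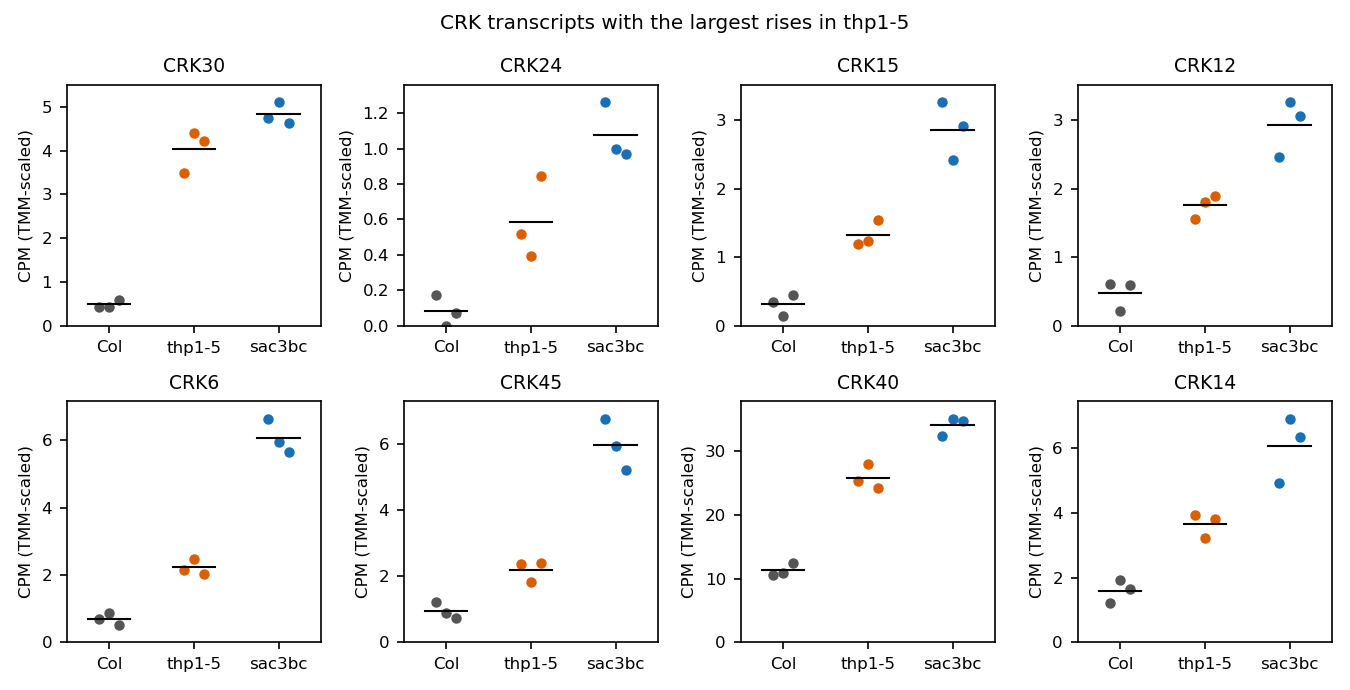
CPM in each library (y axis from 0; points are libraries, lines are group means) of the 8 members with the largest rises in thp1-5. In every panel all thp1-5 and sac3bc libraries lie above all Col libraries, and sac3bc lies above thp1-5.

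Smaller rises were seen for CRK42, CRK11 and CRK10. CRK42 (AT5G40380), on chromosome 5, went from 18.7, 15.6 and 16.1 CPM in Col to 32.9, 32.6 and 33.7 CPM in thp1-5 and 28.1, 28.3 and 27.7 CPM in sac3bc. It was the only riser in both mutants that stood higher in thp1-5 than in sac3bc, at 0.98 ± 0.07 and 0.75 ± 0.07 against Col. CRK11 (AT4G23190) went from 11.6, 8.46 and 9.3 CPM to 17, 15.2 and 14.9 CPM and to 22.3, 19.9 and 21.5 CPM, by 0.69 ± 0.10 and 1.13 ± 0.09. CRK10 (AT4G23180), a gene whose gain-of-function allele alters xylem, went from 22.9, 25.5 and 22.1 CPM to 34, 33.6 and 31.4 CPM and to 43.6, 40.9 and 44.2 CPM, by 0.49 ± 0.07 and 0.86 ± 0.06. These 2 neighbours kept the order Col, thp1-5, sac3bc of the stronger risers, with no overlap between genotypes.

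The called rises in sac3bc that were not called in thp1-5 included CRK5, CRK13, CRK36 and CRK7. CRK5 (AT4G23130), whose loss is known to alter cell death and leaf senescence, stood at 2.73, 2.35 and 2.1 CPM in Col, 2.82, 2.65 and 2.25 CPM in thp1-5 and 5.43, 6.42 and 5.56 CPM in sac3bc. CRK13 (AT4G23210), whose overexpression raises salicylic acid and resistance to bacteria, stood at 0.353, 1.18 and 1.2 CPM, at 1.49, 1.86 and 0.703 CPM and at 2.63, 2.63 and 3.36 CPM. CRK36 (AT4G04490), which is known to associate with the flagellin receptor FLS2, stood at 0.529, 1.84 and 1.12 CPM, at 0.595, 1.24 and 1.12 CPM and at 2.75, 3.05 and 2.14 CPM. In these genes thp1-5 overlapped Col, at 0.11 ± 0.22, 0.56 ± 0.34 and -0.24 ± 0.35, while sac3bc lay above both, at 1.28 ± 0.18, 1.61 ± 0.29 and 1.13 ± 0.28 against Col. The thp1-5 value of CRK13 was called with total counts (0.84) and without thp1-5 library 3 (0.85), as were those of CRK2 (0.36) and CRK41 (0.52) with total counts.

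CRK7 (AT4G23150) was the member that parted most between the mutants. It stood at 0.617, 0.515 and 0.3 CPM in Col, 0.297, 0.0564 and 0.211 CPM in thp1-5 and 0.858, 1.16 and 0.917 CPM in sac3bc, from 18, 8 and 55 counts in sum. All thp1-5 libraries lay below and all sac3bc libraries above the Col libraries, at -1.37 ± 0.65, which was not called, and 1.04 ± 0.43, which was called. The sac3bc call was lost without Col library 2 (1.12), Col library 3 (0.79) or sac3bc library 2 (0.91), and the thp1-5 value was called without Col library 3 (-1.63) or thp1-5 library 1 (-1.84). CRK41 (AT4G00970) at 0.58 ± 0.17 was also called in sac3bc, from 3.17 to 3.68 CPM in Col to 4.75 to 5.42 CPM, while its thp1-5 libraries at 3.12 to 4.8 CPM overlapped both.

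Falls were smaller in fold. Of the 14 tested members with at least 5 RPKM, 6 were called lower and 5 higher in thp1-5. Of the 20 tested members under that level, 4 were lower and 7 higher. Among all tested genes 31.8% were lower and 32.0% higher. The shares of all genes at each level were not counted, so nothing is read from this split. CRK4 (AT3G45860), on chromosome 3 and reported to associate with FLS2, went from 4.5, 3.53 and 3.82 CPM in Col to 1.78, 2.03 and 1.12 CPM in thp1-5 and 2.35, 2.84 and 2.24 CPM in sac3bc. Its values of -1.23 ± 0.23 and -0.66 ± 0.20 made it the only member called at least 2-fold lower in a mutant. With total counts its thp1-5 value was -0.94, still called but less than 2-fold lower, and the sac3bc call was lost at -0.33. CRK25 (AT4G05200) went from 25.6, 27.7 and 22.6 CPM to 16.9, 16.9 and 16.7 CPM and to 18.7, 16.8 and 19.5 CPM, by -0.58 ± 0.08 and -0.46 ± 0.08. For CRK4 and CRK25 both mutants lay wholly below Col.

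CRK34 and CRK27 fell by similar amounts. CRK34 (AT4G11530) stood at 8.55, 5.74 and 6.82 CPM in Col, 4.53, 5.25 and 3.87 CPM in thp1-5 and 4.92, 4.79 and 4.23 CPM in sac3bc, and changed by -0.60 ± 0.16 and -0.59 ± 0.15. CRK27 (AT4G21230) stood at 6.79, 6.47 and 8.25 CPM, at 4.83, 4.18 and 6.61 CPM and at 4.52, 5.26 and 5.05 CPM, and changed by -0.48 ± 0.15 and -0.54 ± 0.15. In CRK27 thp1-5 overlapped Col by 1 library, and its call there was lost without Col library 3 (-0.36) or thp1-5 library 2 (-0.32). For these 2 genes the calls in both mutants were lost with total counts, as was that of CRK25 in sac3bc.

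CRK9 (AT4G23170) fell in thp1-5 alone by the calls. It is annotated as EP1 with a protein of 265 residues in which neither of the kinase motifs HRDL and DFG was found. Its level was 12.3, 10.6 and 10.4 CPM in Col, 6.47, 6.83 and 5.98 CPM in thp1-5 and 12.6, 10.4 and 12.1 CPM in sac3bc. The thp1-5 libraries lay below all others, at -0.77 ± 0.12 against Col, and sac3bc overlapped Col at 0.08 ± 0.11, which became 0.42 and was called with total counts. CRK16 (AT4G23240) stood at 2.47, 3.02 and 3.15 CPM in Col, 1.86, 1.64 and 2.67 CPM in thp1-5 and 2.17, 2.42 and 2.34 CPM in sac3bc. CRK17 (EMB1290, AT4G23250) stood at 25.1, 21.3 and 21.1 CPM, at 18.4, 20 and 21.2 CPM and at 23.9, 24.5 and 22.2 CPM. Their thp1-5 values of -0.51 ± 0.23 and -0.17 ± 0.08 were called, but each was lost in most other fits, CRK17 turned to 0.11 with total counts, and each overlapped Col. These 2 neighbours share 38.2% and 24.9% of their exonic bases with another locus, and no source used here says how reads in the shared part were assigned. The shared part was 18% for CRK25, 16% for CRK29 and 15.4% for CRK28, and at most 4.56% for any other member.

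**Figure D4:**
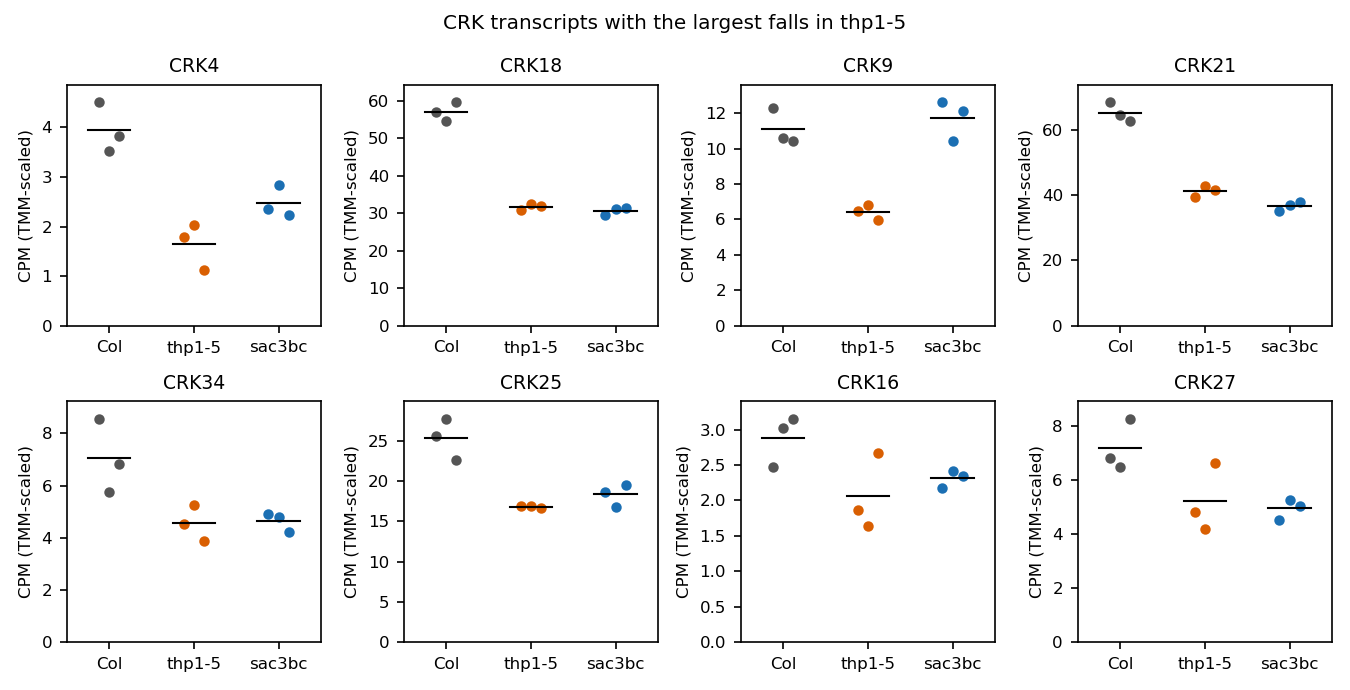
CPM in each library (y axis from 0; points are libraries, lines are group means) of the 8 members with the largest falls in thp1-5. With TMM scaling CRK9 overlaps Col in sac3bc, while CRK18 and CRK21 lie far below Col in both mutants.

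Set directly against each other, the mutants differed mostly in 1 direction. In thp1-5, 15 of the 34 members were lower than in sac3bc (44.1%, against 10.9% of all genes) and 2 were higher (5.88%, against 12.1%). At least 2-fold lower were 7 members, against 0.817% of all genes, and at least 2-fold higher were 0, against 0.223%. The median was -0.36, compared with 0.00 over all genes. With total counts the split was 17 lower to 1 higher, without a count of all genes under that scaling. As above, the family was chosen with these values known.

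The 5 largest differences were those of CRK7 at -2.42 ± 0.52, CRK45 at -1.45 ± 0.18, CRK6 at -1.43 ± 0.18, CRK36 at -1.38 ± 0.27 and CRK5 at -1.17 ± 0.17. CRK15 at -1.11 ± 0.25 and CRK13 at -1.06 ± 0.25 completed the 2-fold group. Of these 7, CRK45, CRK6 and CRK15 were above Col in both mutants, CRK5, CRK13 and CRK36 overlapped Col in thp1-5, and CRK7 lay below Col there. The next called member was CRK9 at -0.86 ± 0.11. The 2 members higher in thp1-5 were CRK42 at 0.24 ± 0.06 and CRK21 at 0.17 ± 0.05, and the call of CRK21 was lost with total counts. CRK30 at -0.25 ± 0.16 and CRK18 at 0.05 ± 0.06, strongly changed in both mutants, were not called between them.

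**Figure D5:**
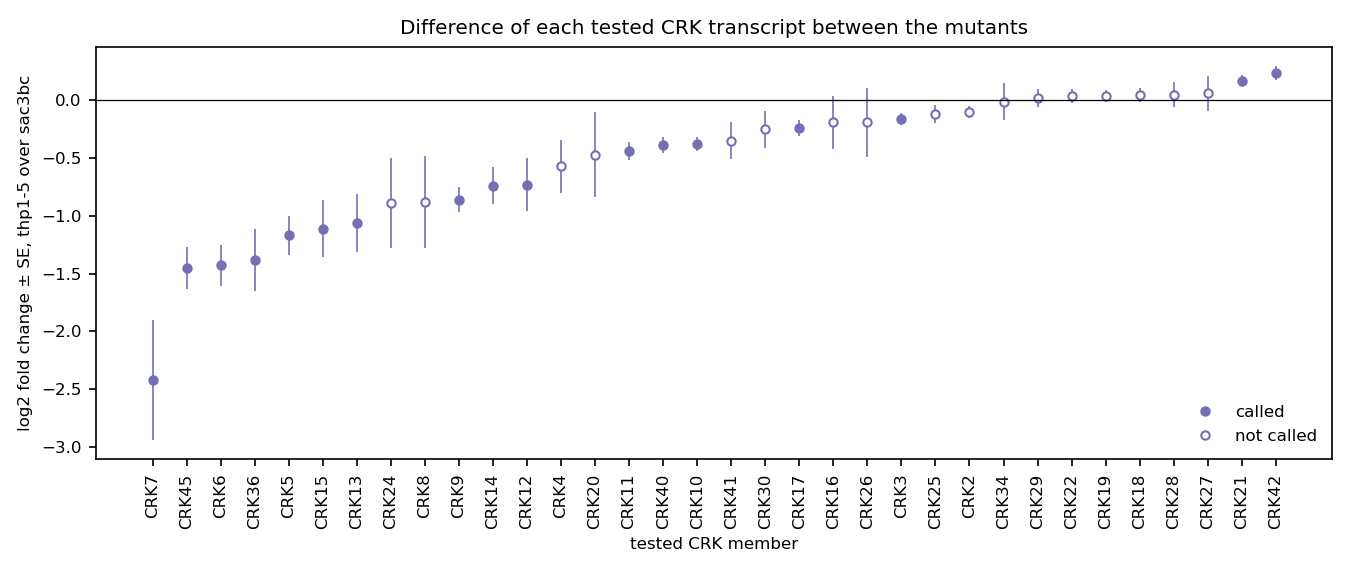
Log2 fold change of thp1-5 over sac3bc (y axis, bars are SE) for the 34 tested members in ascending order, filled where called. The values run from -2.42 for CRK7 to 0.24 for CRK42, and 15 of the 17 called members lie below 0.

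Members called in either direction lay in the same tandem groups. Of the 19 tested members of the CRK5 to CRK24 group, 7 were higher and 6 lower in thp1-5, 10 higher and 3 lower in sac3bc, and 1 higher and 11 lower in thp1-5 against sac3bc. Among all tested genes, 32.0% were higher and 31.8% lower in thp1-5, and 35.0% and 33.0% in sac3bc. Between the mutants the shares were 12.1% and 10.9%. Calls in both directions are thus not particular to this group. A tandem group here means members with at most 5 other loci between neighbours. CRK28 and CRK29, a tandem pair of which CRK28 is known to associate with FLS2 and its partner BAK1, were called in neither mutant, at -0.09 ± 0.11 and 0.14 ± 0.09 in thp1-5 and -0.14 ± 0.11 and 0.13 ± 0.08 in sac3bc. CRK29 was called higher with total counts (0.43 and 0.46), and in sac3bc without sac3bc library 1 (0.20). The other members called in neither mutant and not yet described were CRK8, CRK20 and CRK26. Over all 9 libraries they lay at 0.395 to 1.21, 0.515 to 0.999 and 0.809 to 1.83 CPM. All sac3bc libraries of CRK20 lay above its Col and thp1-5 libraries, and CRK20 was called higher in sac3bc with total counts (0.97). All thp1-5 libraries of CRK8 lay below its sac3bc libraries. In the CRK30 to CRK34 group, CRK30 rose and CRK34 fell.

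Of the 41 members whose coding sequence could be translated, 40 held at least 1 cysteine motif of the DUF26 type, in which 8 residues part the first 2 cysteines and 2 residues the next. Exactly 2 such motifs, 101 to 127 residues apart, were found in 36. CRK45, with 354 residues, held none. The member closest in protein sequence to CRK24 was CRK21, with 68.4% identity over 528 aligned residues, yet CRK24 rose while CRK21 fell. CRK13 and CRK22, with 70.6% identity, had values of 1.61 and -0.31 in sac3bc. CRK6 and CRK15, with 73.1% identity, both rose, as did CRK12 and CRK14 with 63.6%. The member closest to CRK6 was CRK8, with 79.6% identity over 445 aligned residues, and CRK8 was called in neither mutant. CRK19 and CRK20, with 84.9%, were called in neither mutant. In the genome, stretches of 150 bases, the read length, recurred elsewhere for 4 members, at 5.45% of the positions of CRK6, 6.78% of CRK8, 8.31% of CRK13 and 9.98% of CRK22.

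The 8 untested members were nearly silent. CRK37, CRK38 and CRK39, neighbours of CRK40, had 3, 2 and 2 counts in all Col libraries, 3, 1 and 9 in thp1-5 and 28, 23 and 24 in sac3bc. The ratios of sac3bc to Col, corrected for library size, were 6.37 (95% exact binomial interval of 1.97 to 32.7), 7.84 (1.94 to 68.6) and 8.19 (2.03 to 71.5). These intervals pool the libraries of a genotype and leave out the spread between them. In the sac3bc libraries CRK37 had 11, 4 and 13 counts, CRK38 had 2, 9 and 12, and CRK39 had 8 in each. CRK38 overlapped Col, at 0.114 CPM in sac3bc library 1 against 0.15 CPM in Col library 3. CRK31 had 2, 2 and 13 counts, CRK32 had 5, 19 and 20, and CRK23 had 15, 10 and 19, in Col, thp1-5 and sac3bc. The Col counts of these genes were too few to place their levels within a narrower range.

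Other genes of the pathways in which CRKs act were counted from lists chosen with earlier results of these data known. Their shares are therefore descriptions and not independent evidence. Of all tested genes, 32.0% were called higher and 31.8% lower in thp1-5. The shares were 35.0% and 33.0% in sac3bc, and 12.1% and 10.9% in thp1-5 against sac3bc. Among 14 tested genes of 16 for NADPH oxidases and reactive oxygen, 8 were higher (57.1%) and 3 lower (21.4%) in thp1-5 (median 0.44), and 8 higher and 2 lower (14.3%) in sac3bc (median 0.72). The zinc finger genes ZAT10 (STZ) and ZAT12 (RHL41), both induced by reactive oxygen, were both called higher in both mutants. ZAT10 averaged 2.91 ± 0.496, 10.2 ± 1.13 and 12.9 ± 0.678 CPM in Col, thp1-5 and sac3bc, and ZAT12 averaged 1.41 ± 0.402, 3.96 ± 0.483 and 5.71 ± 0.332 CPM (SD, n = 3). The oxidase gene RBOHA rose by 1.17 ± 0.28 and 1.39 ± 0.26. Of 15 genes of pattern-triggered immunity, 8 were higher (53.3%) and 4 lower (26.7%) in thp1-5 (median 0.31), and 10 higher (66.7%) and 3 lower (20%) in sac3bc (median 0.38). FRK1, a receptor kinase gene induced by flagellin, rose by 0.70 ± 0.24 and 2.06 ± 0.20, and CYP81F2 of indole glucosinolate metabolism by 1.42 ± 0.19 and 2.09 ± 0.17, whereas NHL10 (YLS9) changed by -1.62 ± 0.22 and -1.25 ± 0.20. The medians over all genes, given above, were near 0.

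Of 17 tested genes out of 18 for salicylic acid synthesis and signalling, 5 were higher (29.4%) and 6 lower (35.3%) in thp1-5 (median -0.12), shares near those of all genes. In sac3bc 11 were higher (64.7%) and 2 lower (11.8%; median 0.39), and in thp1-5 against sac3bc 0 were higher and 12 lower (70.6%; median -0.36). PR1, a marker of salicylic acid signalling, had a mean of 1.05 ± 0.456 CPM in Col, against 0.0611 ± 0.057 CPM in thp1-5 and 5.67 ± 0.384 CPM in sac3bc (SD, n = 3). PR2 (BGL2) averaged 2.38 ± 0.458, 2.04 ± 0.259 and 13 ± 1.43 CPM. PBS3, an enzyme of salicylic acid synthesis, was lower in both, by -3.07 ± 0.24 and -1.35 ± 0.18. Between the mutants, 0 genes of pattern-triggered immunity were higher and 7 lower (46.7%) in thp1-5 (median -0.22), and of the reactive oxygen list 1 was higher (7.14%) and 9 lower (64.3%; median -0.31). No test of the lists as sets was made.

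The plasmodesmata-located proteins carry DUF26 domains without a kinase. Of 8 tested, 1 was higher (12.5%) and 2 lower (25%) in thp1-5 (median -0.20), 1 higher and 1 lower in sac3bc (median -0.15), and 0 differed between the mutants by the calls. PDLP2 rose by 0.59 ± 0.10 and 0.66 ± 0.09, and PDLP5 (HWI1) changed by -0.68 ± 0.11 and -0.55 ± 0.11. Of 4 further loci that carry CRK names outside the list of 42, 2 were tested, and AT1G70740 rose by 0.92 ± 0.09 and 1.17 ± 0.09. The shared cysteine motif alone was found at least 2 times in proteins of 93 loci outside the family. These include plasmodesmata-located proteins such as PDLP2 and also other proteins such as HAC1. Of the 52 loci that were tested, 17 were higher (32.7%) and 16 lower (30.8%) in thp1-5, and 16 were higher and 16 lower in sac3bc, near the shares of all genes. The largest called changes were those of HAC2 at 6.64 ± 0.56 and 5.95 ± 0.62, from a mean of 0.0294 CPM in Col. XBAT34 changed by 1.64 ± 0.17 and 3.04 ± 0.14, and M17 by -0.68 ± 0.21 and -2.45 ± 0.25.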

How the data were processed

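The deposited tables held read counts per gene with a gene length, 1 table per library. Per the submitters' processing notes, STAR and DESeq2 were used, with no version or role named. No source used here gives the build, the annotation, the counter or whether strand was used. The deposited lengths equal the summed exons of TAIR10.1 for 99.5% of 37051 loci and for all 42 members, so positions and upstream windows are those of that reference. Poly(A) libraries (NEBNext kit) gave reads of 150 nt from 1 end.

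After filterByExpr at a minimum count of 10, 1 model of 3 groups and 9 libraries was fitted with edgeR 4.0.16 under R 4.3.3 (TMM factors; two-sided quasi-likelihood F-test, robust). The spread had 6 residual degrees of freedom and a common coefficient of variation of 0.0284. A gene counted as called where its Benjamini-Hochberg adjusted p, taken over all 22400 genes, was under 0.05. Standard errors are the fold change over the square root of F. The script was tested on simulated data. Alternatives were total counts, DESeq2 size factors, DESeq2 1.42.0, no filter, only the groups compared, a replicate block and each library left out. Intervals and floors cover counting error only.

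The members and lists were chosen with earlier results of these data known. Library values are given for the 6 most abundant members, up to 8 rising and 8 falling members per mutant and 5 each way between the mutants; of each list, up to 3 called genes with the largest fold change are named. Further members, and the 4 upstream windows, were named after their values were seen. Proteins were aligned and motifs counted with Biopython 1.88.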

Additional observations from a re-analysis of the deposited data

How the results depend on the processing

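The counts of called members (22 in thp1-5, 25 in sac3bc, 17 between the mutants) stayed within 1.5 times under all alternatives run. Leaving out 1 library gave 19 to 22, 25 to 26 and 15 to 19. Same-numbered libraries showed little common deviation over all tested genes (9 pairs, correlations of -0.009 to 0.038). That does not exclude a culture or batch shared by libraries of the same number. With a replicate block the counts were 20, 25 and 17, and CRK16 and CRK17 lost their call in thp1-5. The same calls were lost with DESeq2, with no filter and with only the groups compared. DESeq2 also lost CRK3 in thp1-5, CRK7 in sac3bc, and CRK3, CRK12 and CRK17 between the mutants; the cause was not tested. CRK7, CRK8 and CRK24 were not tested in the fit of thp1-5 and Col alone, where fewer libraries enter the filter.

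With no filter, CRK37, CRK38 and CRK39 were called higher in sac3bc, and CRK37 and CRK38 lower in thp1-5 than in sac3bc. CRK37 was also called in both comparisons in 7 of the 9 fits that left out 1 library. It had 11, 4 and 13 counts in the sac3bc libraries and at most 2 in any other library. CRK37 thus passed the filter of those fits through sac3bc alone, the genotype where it was high, and these calls are no independent evidence. Such fits further gained CRK7 (2 fits) and CRK13 in thp1-5, CRK29 in sac3bc, and CRK2, CRK4 and CRK41 between the mutants.

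Total counts set libraries equal by sum and moved the median of all genes upward in both mutants. In thp1-5 against Col, the sign turned for CRK36 (0.04), CRK28 (0.20), CRK17 (0.11), CRK19 (0.26) and CRK22 (0.02). In sac3bc against Col it turned for CRK28 (0.19), CRK16 (0.01), CRK19 (0.27) and CRK22 (0.02), and between the mutants for CRK29 (-0.03), CRK19 (-0.01) and CRK22 (-0.01). Calls were gained for CRK2, CRK13, CRK19, CRK29 and CRK41 in thp1-5, for CRK9, CRK17, CRK19, CRK20 and CRK29 in sac3bc, and for CRK2 and CRK4 between the mutants. The summed level of the 42 members, thp1-5 minus Col, turned from -11 to 27 RPKM, and sac3bc minus Col went from 13 to 59 RPKM, an alternative chosen after seeing the data.

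Leaving out 1 library turned the sign of members that were not called. In thp1-5 against Col the values ran from -0.55 to 0.25 for CRK36, -0.20 to 0.01 for CRK28, -0.27 to 0.30 for CRK26 and -0.03 to 0.43 for CRK20. Between the mutants they ran from -0.02 to 0.09 for CRK28, -0.53 to 0.04 for CRK26, -0.14 to 0.09 for CRK34, -0.15 to 0.21 for CRK27 and -0.05 to 0.12 for CRK29. Of the calls in thp1-5, CRK16 was lost in 7 and CRK17 in 5 of the 9 such fits, and CRK3 and CRK27 in 2 each, and in sac3bc CRK7 in 3. Between the mutants, CRK12 and CRK17 were lost without thp1-5 library 1 or sac3bc library 2, CRK21 without thp1-5 library 2 or sac3bc library 1, and CRK3 without sac3bc library 2. Depth limits the members under about 1 RPKM, whose Col libraries hold few counts.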
